A study of Mus musculus with 4 samples.

Results

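The elastic fibre genes described here are 10 of the 32285 genes in the count tables of 4 single-cell libraries of mouse fracture callus. They were chosen by symbol for the parts of the fibre their products form: the core (Eln), the microfibril (Fbn1, Fbn2, Mfap4 and Mfap5), the fibulins that join the core and the microfibril to each other and to cells (Fbln1, Fbln2 and Fbln5) and the enzymes that cross-link elastin (Lox and Loxl1). The set was built around the level of Eln, which stood higher in RA callus than in control callus in the mesenchymal sums at 7 days post fracture (dpf). That Eln difference is therefore given as a description, and the question put to the data was whether the other parts of the fibre moved with it, cell class by cell class. All 10 members had at least 1 UMI in every library among the mesenchymal, mural and endothelial cells.

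The mice were wild-type C57BL/6J males, 3 months old, with a fracture of the right tibia. RA mice were given K/BxN serum, which carries arthritogenic antibodies, and control mice were given vehicle. Callus was collected at 4 and 7 dpf, which gave the libraries control_4d, control_7d, RA_4d and RA_7d. Each was 1 library from a pool of 4 calluses by the labels (the methods give another pool size), with 10000 cells loaded. There was no second library of any group, so the effect of the serum and the difference between 2 separately prepared libraries cannot be told apart, and no test across animals was possible. The animals behind a pool cannot be separated, and serum transfer models only the antibody-driven arm of arthritis.

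Elastic fibres give tissues their recoil and are abundant in artery walls, lung, skin, ligament and fascia. Tropoelastin, the product of Eln, is secreted by fibroblasts, smooth muscle cells and endothelial cells, gathered by fibulins, laid onto a scaffold of fibrillin microfibrils and then made insoluble by lysyl oxidases. Most elastin is made during growth, and its production is known to restart in injured tissue, where the fibre also needs its scaffold genes to be in use.

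After a filter on depth and mitochondrial share, 25479 of the 34038 deposited barcodes were kept (5470 in control_4d and 7676 in control_7d, against 4110 in RA_4d and 8223 in RA_7d), with a median of between 16094 and 17632 UMIs per cell. Pairs of libraries shared 5 to 15 cell barcodes. The cells were clustered without the 10 members or 20 accessory fibre genes among the variable genes, and the clusters were named from markers. There were 9231 mesenchymal cells (997 in control_4d and 3261 in control_7d, against 819 in RA_4d and 4154 in RA_7d), 831 mural cells and 3371 endothelial cells. Each lineage led in its own markers: the summed level of Prrx1, Pdgfra, Col1a1, Col3a1 and Twist2 in mesenchymal cells was between 23303 and 37154 CPM (a scale on which the levels of all genes of a class add up to the same total) in the 4 libraries, that of Rgs5, Notch3, Myh11, Acta2 and Kcnj8 in mural cells was between 11088 and 14336 CPM, and that of Pecam1, Cdh5, Emcn, Tek and Egfl7 in endothelial cells was between 3565 and 3770 CPM.

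The mesenchymal cells held 3157 committed mesenchymal progenitor-like, 2689 fibroblast-like, 1737 fibroblast precursor-like, 897 tenocyte precursor-like, 393 chondrogenic-like and 358 cycling mesenchymal-like cells. Of the committed progenitor markers only Postn was highest in the class of that name. Aspn (1367 CPM there against 1469), Edil3 (266 against 471) and Dkk3 (106 against 147) were highest in tenocyte precursor-like cells. Tnn (248 against 335) was highest in chondrogenic-like cells. The chondrogenic-like class had 1 and 3 cells at 4 dpf and was used only at 7 dpf. The mural cells held 432 smooth muscle-like and 333 pericyte-like cells, and a sub-cluster of 66 cells led by macrophage genes that was left unnamed. Of the markers used for these 2 mural names, Cspg4 (pericyte) and Actg2 (smooth muscle) went the other way. Cspg4 was 262 CPM in smooth muscle-like and 65.9 in pericyte-like cells, and Actg2 was 37.1 and 127 CPM. The endothelial cells held 1419 capillary-like, 1090 venular-like, 308 lymphatic-like, 184 arterial-like and 173 cycling endothelial-like cells, and an unnamed sub-cluster of 197 cells, also led by macrophage genes. These names were rebuilt from the counts and may cover other cells than the names given in the study.

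Levels are UMIs of a gene summed over all cells of a class in one library and scaled to CPM. Bracketed ranges are exact 95% intervals that cover counting error only. They do not cover the spread between animals, which 1 library per group does not show. A gene was counted as higher or lower when the libraries compared differed by at least 1.5-fold on the log2(CPM + 1) scale, which understates the change of low genes, and when both libraries together held at least 50 UMIs of it. In these data, fewer cells making a transcript and less transcript per cell both lower a class sum, so each sum is set beside the share of cells with the transcript where that matters.

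Eln stood higher in RA callus in the mesenchymal cells at both times. Its level was 134 CPM (130–138) in control_4d and 118 (115–120) in control_7d, against 296 (289–303) in RA_4d and 494 (490–498) in RA_7d. The ratio of RA to control was 2.21 (2.13–2.30) at 4 dpf and 4.20 (4.11–4.29) at 7 dpf. Eln, which encodes tropoelastin, lies on chromosome 5 (chr5:134702593-134747323, minus strand, GRCm38).

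The other lineages made Eln at similar or higher levels per UMI in control callus and differed less between conditions. Mural cells had 390 CPM in control_4d and 301 in control_7d, against 345 in RA_4d and 429 in RA_7d, and the ratio of RA to control was 0.885 (0.789–0.992) at 4 dpf and 1.43 (1.33–1.53) at 7 dpf. Endothelial cells had 179, 203, 234 and 346 CPM in the same order, with ratios of 1.31 (1.24–1.38) and 1.70 (1.63–1.78). Of these mural and endothelial differences only the endothelial one at 7 dpf passed the 1.5-fold limit. Haematopoietic cells, which should lack the transcript, had 1.15 CPM in control_4d and 4.51 in control_7d, against 2.15 in RA_4d and 15.9 in RA_7d, and this background level also differed 3.52-fold (2.92–4.27) between RA_7d and control_7d. The share of the Eln UMIs of these 3 lineages that lay in mesenchymal cells was 53.8% in control_4d and 70.6% in control_7d, against 70.3% in RA_4d and 85.1% in RA_7d.

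The fibrillins, which form the microfibril backbone, differed between conditions in opposite ways at the 2 times. Mesenchymal Fbn1 was 1435 CPM in control_4d and 899 in control_7d, against 982 in RA_4d and 1365 in RA_7d, so that the control library was the higher at 4 dpf and the RA library at 7 dpf. The ratio of RA to control was 0.684 (0.673–0.695) at 4 dpf and 1.52 (1.51–1.53) at 7 dpf, where 4.31% of tested genes had a larger log2 difference. Fbn2, the fibrillin best known from development, was 92.4 CPM in control_4d and 200 in control_7d, against 144 in RA_4d and 189 in RA_7d. Its ratio was 1.56 (1.48–1.64) at 4 dpf and 0.942 (0.923–0.962) at 7 dpf. Fbn1 lies on chromosome 2 (chr2:125300594-125507993, minus strand) and Fbn2 on chromosome 18.

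The microfibril-associated glycoproteins stayed within 1.5-fold in the mesenchymal cells. Mfap4, whose product binds fibrillin and tropoelastin, was 171 CPM in control_4d and 247 in control_7d, against 186 in RA_4d and 352 in RA_7d, with ratios of 1.09 (1.05–1.14) and 1.43 (1.40–1.45). Mfap5, a fibrillin-bound glycoprotein, was 925 CPM in control_4d and 778 in control_7d, against 629 in RA_4d and 942 in RA_7d, with ratios of 0.680 (0.667–0.694) and 1.21 (1.20–1.22). Mfap5 thus paired with Fbn1 in being lower in RA_4d than in control_4d and higher in RA_7d than in control_7d. Mfap4 lies on chromosome 11 (chr11:61485431-61488900, plus strand) and Mfap5 on chromosome 6 (chr6:122505845-122529290, plus strand).

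Among the fibulins, Fbln1 was the member other than Eln that differed most at 7 dpf. Fbln1, whose product binds fibronectin, laminin and elastic fibres, was 143 CPM in control_4d and 72.3 in control_7d, against 158 in RA_4d and 152 in RA_7d. Its ratio was 1.10 (1.05–1.15) at 4 dpf and 2.10 (2.04–2.17) at 7 dpf, where control_7d was the low library and the other 3 lay close to each other. Fbln2, found in vessel walls and around fibroblasts, was 861, 635, 945 and 851 CPM in control_4d, control_7d, RA_4d and RA_7d, with ratios of 1.10 (1.08–1.12) and 1.34 (1.33–1.36). Fbln5, which is required for elastic fibre assembly, was 122, 87.6, 129 and 114 CPM in the same order, with ratios of 1.06 (1.01–1.11) and 1.30 (1.26–1.34). All 3 fibulins were lowest in control_7d. Fbln2 lies on chromosome 6 (chr6:91212455-91272540, plus strand) and Fbln5 on chromosome 12 (chr12:101746565-101819055, minus strand).

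The sequence before the start of Fbln1 (chr15:85205949-85286535, plus strand, GRCm38) is shown because Fbln1 was the member besides Eln with the largest mesenchymal difference at 7 dpf. The 250 bases upstream of its RefSeq start (chr15:85205699-85205948, plus strand, GRCm38.p6) read, with no letters capitalised because none of the motifs searched was found:
Fbln1 upstream: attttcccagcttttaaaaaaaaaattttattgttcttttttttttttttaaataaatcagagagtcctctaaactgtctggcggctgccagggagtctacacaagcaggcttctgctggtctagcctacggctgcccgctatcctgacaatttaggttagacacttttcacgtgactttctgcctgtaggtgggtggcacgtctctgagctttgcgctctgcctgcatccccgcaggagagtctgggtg
It held no TGANTCA on either strand, nor the letters CCAAT, nor those of TATAAA. The RefSeq table held 2 entries for Fbln1, and only the first was searched and is shown. Of the 32851 upstream windows of the same length in the RefSeq table, 6.75% held TGANTCA, 33.8% CCAAT and 12.4% TATAAA.

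The lysyl oxidases stayed within 1.5-fold in the mesenchymal cells at both times. Lox, which cross-links elastin and collagen, was 728 CPM in control_4d and 559 in control_7d, against 856 in RA_4d and 510 in RA_7d in mesenchymal cells. Its ratio of RA to control was 1.18 (1.15–1.20) at 4 dpf and 0.911 (0.9–0.923) at 7 dpf. Loxl1, the lysyl oxidase tied most closely to elastin upkeep, was 407, 386, 369 and 455 CPM in the same order, with ratios of 0.906 (0.881–0.931) and 1.18 (1.16–1.20). Lox was lower in both 7 dpf libraries than in both 4 dpf libraries. Loxl1 lies on chromosome 9 (chr9:58287738-58313186, minus strand) and Lox on chromosome 18.

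In the mesenchymal sums few of the other members thus passed the 1.5-fold limit along with Eln, though most lay above 1 at 7 dpf. At 7 dpf, Eln aside, 2 of the 9 other members were higher in RA (Fbn1 and Fbln1) and 0 were lower, where 4.54% of all 17390 genes tested were higher and 4.45% lower. At 4 dpf, Eln aside, 1 of the 9 was higher (Fbn2) and 0 lower, where 4.24% of genes were higher and 2.54% lower. These 4 dpf calls depended on how the libraries were scaled. Under TMM scaling Fbn2 fell within 1.5-fold, and Fbn1 and Mfap5 were lower, at log2 ratios of −0.62 and −0.63. By direction alone, and with Eln left out, all of the 9 other members but Fbn2 and Lox had a log2 ratio above 0 at 7 dpf. The middle one of the 9 was Fbln5, at 0.38, against a median of −0.03 over all genes. At 4 dpf all of the 9 but Fbn1, Mfap5 and Loxl1 were above 0. The middle one was then Mfap4, at 0.12, against a median of 0.04 over all genes. The share of the members' mesenchymal UMIs that came from Eln was 2.67% in control_4d and 2.96% in control_7d, against 6.30% in RA_4d and 9.11% in RA_7d. The plot of mesenchymal, mural and endothelial ratios shows each member beside Eln.

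**Figure D1:**
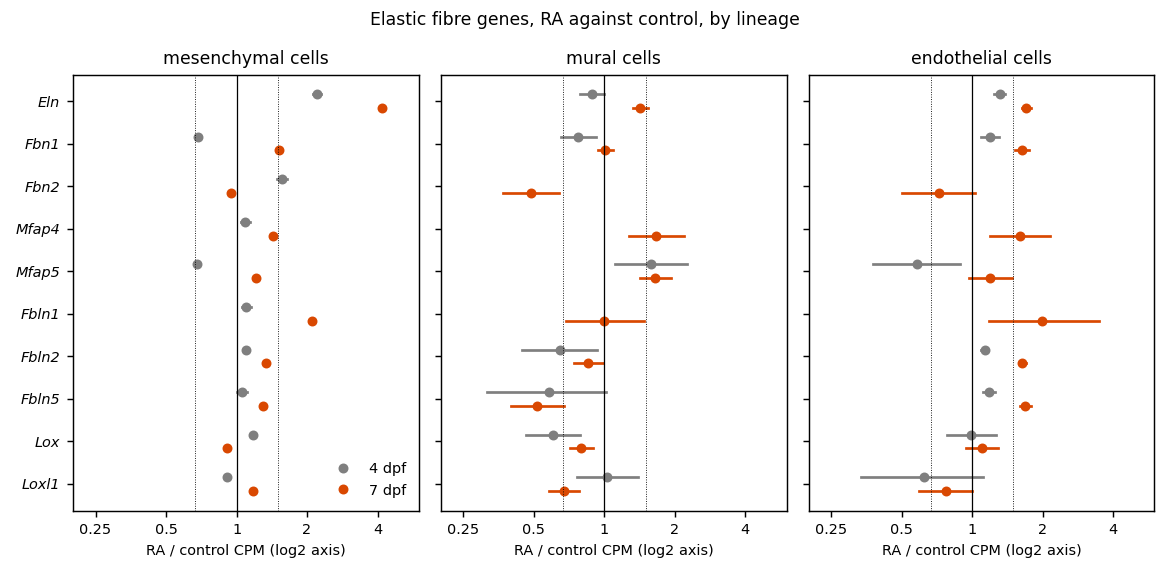
Ratio of RA to control in CPM (log2 axis) of each of the 10 members in mesenchymal, mural and endothelial cells at 4 and 7 dpf, 1 library per group, with bars for the 95% counting interval and dotted lines at 1.5-fold; members under 50 UMIs have no point. In mesenchymal cells at 7 dpf Eln lies at 4.20, Fbln1 at 2.10 and Fbn1 at 1.52, while Lox and Fbn2 lie just below 1.

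The makeup of the mesenchyme differed between conditions, in opposite ways at the 2 times. At 7 dpf fibroblast-like cells were 22.7% of the mesenchymal cells in control_7d and 33.8% in RA_7d, fibroblast precursor-like cells 14.8% and 22.3%, and committed progenitor-like cells 41.3% and 29.4%. At 4 dpf the same classes were 30.9% and 28.6%, 21.4% and 14.3%, and 27.4% and 38.5% in control_4d and RA_4d. With each class weighted equally in all libraries, at its share over the 4, the log2 ratio at 7 dpf was 1.76 for Eln and 0.86 for Fbln1, both still past the limit, and 0.34 for Fbn1, which was not. At 4 dpf it was 1.14 for Eln and 0.50 for Fbn2, which was then within 1.5-fold. For Mfap5 the log2 ratio with classes so weighted was 0.060 at 7 dpf, from 0.28 in the sums. At 4 dpf it was −0.49, from −0.56.

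Eln was higher in RA in 5 of 5 mesenchymal classes at 4 dpf, where between 3.74% and 12% of the genes tested in a class were higher. It was higher in 4 of 6 at 7 dpf, where between 4.28% and 8.24% were in those 4. The 7 dpf count is a description, since these classes make up the sum for which Eln was chosen. In committed mesenchymal progenitor-like cells, which led in Postn, it was 84.2 CPM in control_4d and 88.0 in control_7d, against 170 in RA_4d and 544 in RA_7d. The ratio was 2.02 (1.86–2.20) at 4 dpf, where 5.09% of genes were higher, and 6.18 (5.95–6.42) at 7 dpf. In fibroblast-like cells, which express Lum and Cxcl14 and had the highest mesenchymal Eln level in every library, it was 340, 283, 606 and 769 CPM, with ratios of 1.78 (1.69–1.87) and 2.72 (2.63–2.81). In fibroblast precursor-like cells, marked by Pi16 and Dpp4, it was 57.0, 103, 355 and 335 CPM, with ratios of 6.24 (5.57–6.99) and 3.25 (3.07–3.45). The ratio was thus larger at 7 dpf than at 4 dpf in committed progenitor-like and fibroblast-like cells and smaller in the precursors.

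The remaining mesenchymal classes had less Eln. Tenocyte precursor-like cells had 21.0 CPM in control_4d and 120 in control_7d, against 100 in RA_4d and 143 in RA_7d. The ratio was 4.79 (3.64–6.34) at 4 dpf, where 11% of genes were higher, and 1.20 (1.09–1.31) at 7 dpf. The 4 dpf ratio came from 150 cells in control_4d and 95 in RA_4d, few of which held the transcript, by the shares of cells given below. Its interval does not cover the spread between cells. Cycling mesenchymal-like cells had 11.5, 10.6, 34.6 and 124 CPM, and their ratio of 11.7 (8.71–15.9) at 7 dpf rested on 54 UMIs in control_7d and 295 in RA_7d. Chondrogenic-like cells had 7.52 CPM in control_7d and 9.93 in RA_7d, close to the level in haematopoietic cells. The plot of Eln by class gives the level of each class in each library.

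**Figure D2:**
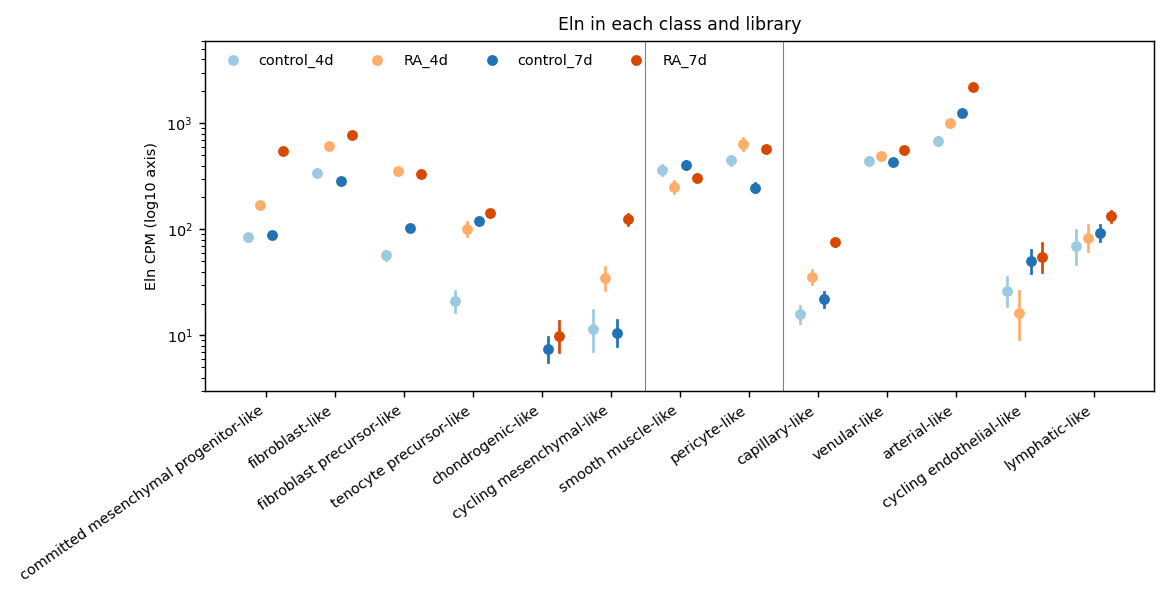
Eln level (CPM, log axis) in each class of mesenchymal, mural and endothelial cells in control_4d, control_7d, RA_4d and RA_7d, with 95% counting intervals. Arterial-like cells have the highest level in each library, and committed progenitor-like cells go from 88.0 CPM in control_7d to 544 CPM in RA_7d.

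Within the mesenchymal classes, the other member that most often stood higher at 7 dpf was Fbln1. It was higher in committed progenitor-like cells (59.98 CPM in control_7d and 108 in RA_7d, ratio 1.80, 1.71–1.90), fibroblast-like cells (139 and 271, ratio 1.95, 1.86–2.04), precursors (51.6 and 95.8, ratio 1.86, 1.70–2.03) and tenocyte precursor-like cells (107 and 170, ratio 1.60, 1.45–1.75). Eln was higher in the first 3 of these classes and not in the last. In the 4 classes 4.99%, 4.28%, 5.54% and 5.17% of genes tested were higher at the same limit. Mfap4 was also higher in committed progenitor-like cells, at 245 CPM in control_7d and 388 in RA_7d (ratio 1.58, 1.54–1.62).

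Other members moved in single classes, and not all upward. Fbn1 was higher in cycling mesenchymal-like cells at 7 dpf (633 CPM in control_7d and 1121 in RA_7d, ratio 1.77, 1.68–1.87), a class where 8.24% of genes were higher. In fibroblast-like cells Fbn2 was lower (181 CPM in control_7d and 111 in RA_7d, ratio 0.611, 0.580–0.642), where 3.25% of genes were lower. Mfap5 was lower in chondrogenic-like cells (43.1 CPM in control_7d and 27.7 in RA_7d, ratio 0.642, 0.511–0.802), where 5.61% of genes were lower. Fbn1, Fbln2, Fbln5, Loxl1 and Lox lay within 1.5-fold in committed progenitor-like, fibroblast-like and precursor cells alike at 7 dpf.

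At 4 dpf the precursors had 5 of 10 members past the limit, Eln among them. Of the microfibril genes, Fbn1 was 3050 CPM in control_4d and 1679 in RA_4d (ratio 0.550, 0.535–0.566), Fbn2 51.1 and 119 (2.33, 2.03–2.69) and Mfap4 34.9 and 182 (5.21, 4.49–6.05). Fbln1 was 83.0 and 146 CPM (1.76, 1.56–1.98). This class had 213 cells in control_4d and 117 in RA_4d, and 7.9% of genes tested were higher and 8.12% lower in it. In fibroblast-like cells at 4 dpf Fbn2 (32.4 and 59.2 CPM, ratio 1.83, 1.56–2.15) and Lox (405 and 668 CPM, ratio 1.65, 1.57–1.73) were higher, where 3.74% of genes were. Mfap5 was lower in tenocyte precursor-like cells (220 and 123 CPM, ratio 0.558, 0.478–0.648) and in cycling mesenchymal-like cells (633 and 338 CPM, ratio 0.534, 0.484–0.589), where 7.58% and 5.56% of genes were lower.

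**Figure D3:**
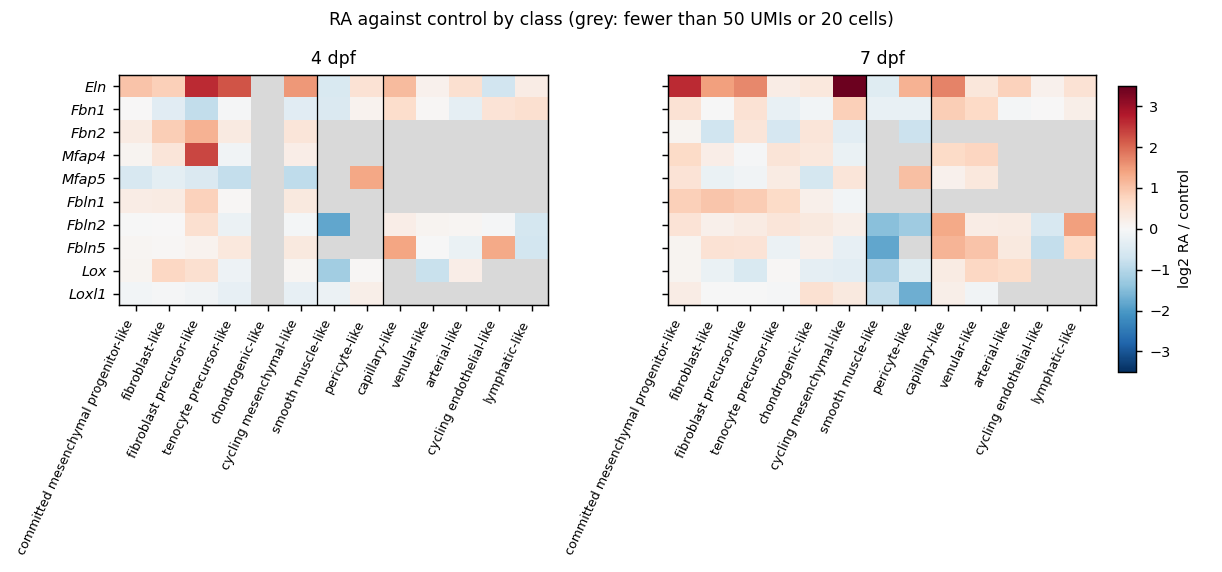
Log2 ratio of RA to control (CPM + 1) of each member in each class at 4 and 7 dpf, as a colour scale from blue (lower in RA) to red (higher in RA), with grey cells where both libraries together held fewer than 50 UMIs or one had fewer than 20 cells. The Eln row is deepest in precursors and tenocyte precursor-like cells at 4 dpf and in committed progenitor-like and cycling mesenchymal-like cells at 7 dpf, and the smooth muscle-like column at 7 dpf is blue for Fbln2, Fbln5, Lox and Loxl1.

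Most of the members had their highest level in other classes than Eln did. Of the 10 members, 7 had their highest level in a mesenchymal class in each of the 4 libraries: Fbn1, Mfap5 and Loxl1 in fibroblast precursor-like cells in every library, Mfap4 in tenocyte precursor-like cells in every library, and Fbn2, Fbln1 and Lox in classes that changed with the library. The precursors had 3050, 1844, 1679 and 2631 CPM of Fbn1 in control_4d, control_7d, RA_4d and RA_7d, each with an interval clear of the next class. Tenocyte precursor-like cells had 697, 702, 644 and 959 CPM of Mfap4 in the same order, also clear of the next. Eln, Fbln2 and Fbln5 were highest in arterial-like cells in every library. For Fbln2 the intervals of the first and the next class overlapped in RA_4d, at 1262 CPM in arterial-like and 1186 CPM in precursor cells, and elsewhere they did not.

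**Figure D4:**
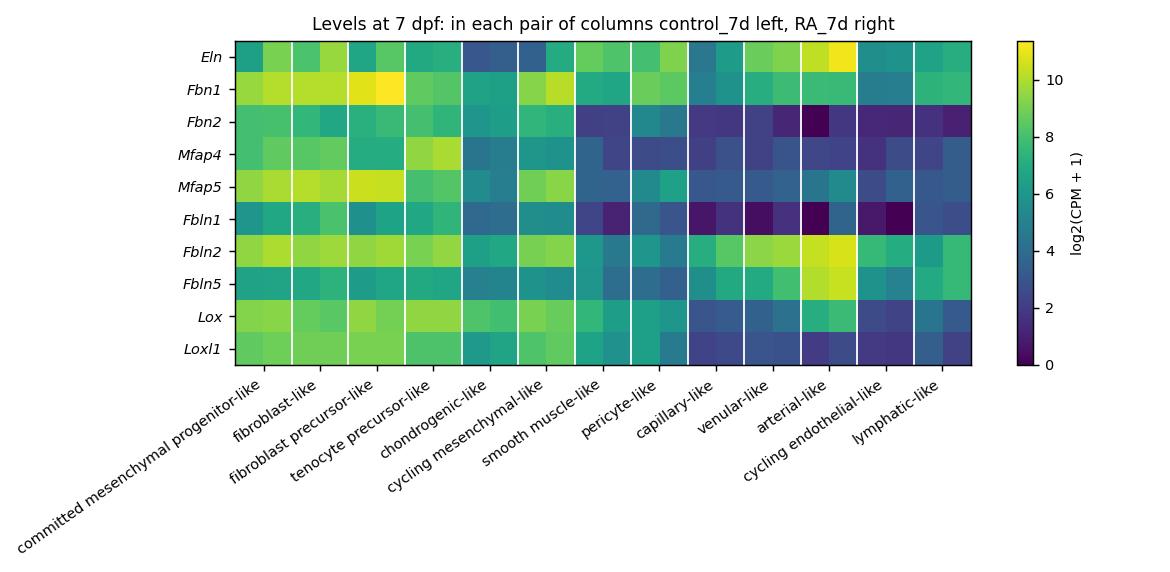
Level (log2(CPM + 1), as a colour scale from dark for low to yellow for high) of each member in each class at 7 dpf, control_7d beside RA_7d. The endothelial columns are dark for Fbn2, Mfap4 and Fbln1, and the arterial-like columns are yellow for Eln, Fbln2 and Fbln5.

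More mesenchymal cells held an Eln transcript in RA, and those that did held more of it. With each cell thinned to 4000 UMIs, Eln was detected in 19.6% of mesenchymal cells (17.1–22.2) in control_4d and 18.5% (17.2–19.9) in control_7d, against 26.9% (23.9–30.0) in RA_4d and 35.2% (33.8–36.7) in RA_7d. The share in haematopoietic cells, thinned alike, was 0.405%, 1.40%, 1.04% and 4.54% in the same order, and the median depth before thinning was 24459 UMIs in mesenchymal and 10798 in haematopoietic cells of control_7d. Unthinned, the mesenchymal shares were 44.8%, 39.5%, 50.5% and 63.5%. The mean number of UMIs in a cell with the transcript, unthinned, was 9.07 in control_4d and 7.47 in control_7d, against 17.2 in RA_4d and 19.4 in RA_7d. The tenth of mesenchymal cells with the most Eln held between 78.2% and 80.8% of its UMIs in each library.

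The classes differed in which of these measures moved. In committed progenitor-like cells the share with Eln was 11% in control_4d and 17.0% in control_7d, against 15.9% in RA_4d and 33.8% in RA_7d. In fibroblast-like cells it was 39.6%, 32.3%, 49.6% and 48.7%, and in precursors 14.1%, 18.3%, 40.2% and 33.3%. In tenocyte precursor-like cells it was 7.33%, 11.6%, 4.21% and 9.92%, so that the higher CPM of RA_4d in that class came without a larger share of cells holding the transcript. The 4 dpf shares rest on 150 cells in control_4d and 95 in RA_4d, and their difference was not tested.

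Fibroblast-like, committed progenitor-like and precursor cells with Eln held Mfap4 more often than those without it. In RA_7d the fibroblast-like class had 685 cells with an Eln UMI and 721 without after thinning, and Mfap4 was detected in 65.4% (61.7–69.0) of the former and 34.8% (31.3–38.4) of the latter. Lox was detected in 67.7% and 49.7%, Fbln5 in 51.2% and 38.0%, Fbln1 in 60.4% and 49.2%, and Loxl1 in 82.6% and 74.3%. Fbn1 was at 93.1% in both. In control_7d the Mfap4 shares of the same class were 67.8% (61.5–73.7) and 54.6% (50.1–59.0). In committed progenitor-like cells Mfap4 was detected in 77.0% and 45.5% in RA_7d, and in 72.1% and 42.3% in control_7d. In precursors it was detected in 36.4% and 16.9% in RA_7d, and in 37.5% and 25.4% in control_7d. At 4 dpf the Mfap4 shares of fibroblast-like cells were 40.5% and 33.9% in RA_4d, a smaller gap than in RA_7d. They were 30.3% and 18.3% in control_4d, a gap close to that of control_7d. In committed progenitor-like cells they were 54.0% and 20.8% in RA_4d and 53.3% and 27.2% in control_4d, with 50 and 30 cells holding Eln. In precursors they were 42.6% and 25.7% in RA_4d and 13.3% and 9.84% in control_4d, with 47 and 30 cells holding Eln. Loxl1 differed more in fibroblast-like cells at 4 dpf, at 76.7% and 61.0% in RA_4d and 77.0% and 60.8% in control_4d. These are shares over cells of 1 library each and were not tested.

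Mural cells, the contractile cells around vessels, showed another pattern. At 7 dpf Mfap4 (22.0 CPM in control_7d and 36.5 in RA_7d) and Mfap5 (68.1 and 112) were higher, and Fbn2 (34.9 and 17.0) and Fbln5 (37.8 and 19.5) were lower, so 2 of 10 were higher and 2 lower, where 5.17% and 3.36% of genes were. With called doublets left out, 0 of 10 were higher and 7 lower, and Mfap4 was lower, at a log2 ratio of −0.73. At 4 dpf, with 99 cells in control_4d and 74 in RA_4d, 1 of 7 members tested was higher (Mfap5) and 3 were lower (Fbln2, Fbln5 and Lox), where 5.29% and 5.53% of genes were, and the count was between 0 and 5 under the other settings. Fbln2, Fbln5 and Lox each turned to higher in RA under at least 1 of those settings. The unnamed mural sub-cluster held 20 cells in control_7d and 33 in RA_7d, of which 55.0% and 81.8% were called doublets.

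In smooth muscle-like cells, the mural class with Myh11 and Acta2, Fbln2, Fbln5, Lox and Loxl1 were lower in RA at 7 dpf and Eln was not past the limit. Eln was 365 CPM in control_4d and 405 in control_7d, against 253 in RA_4d and 304 in RA_7d, a ratio of 0.694 (0.585–0.822) at 4 dpf and 0.750 (0.674–0.836) at 7 dpf. Fbln2 was 95.9, 65.6, 26.2 and 23.0 CPM, and Fbln5 was 37.6, 59.4, 12.6 and 16.2 CPM, in the same order. Lox was 119, 182, 50.2 and 80.8 CPM and Loxl1 72.2, 96.0, 62.7 and 52.8 CPM. Both RA libraries lay below both control libraries in CPM for all 5 of these genes. Shares of cells after thinning did not all follow at 7 dpf. In cells with and without Eln, Fbln2 was detected in 7.69% and 4.94% in control_7d and 3.95% and 6.62% in RA_7d. Loxl1 was detected in 28.2% and 14.8%, against 25.0% and 16.2%. Lox (51.3% and 24.7%, against 31.6% and 19.9%) and Fbln5 (5.13% and 7.41%, against 3.95% and 2.94%) were lower in RA_7d. The counting intervals do not cover the spread between cells.

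The ratios of RA to control at 7 dpf were 0.351 (0.25–0.489) for Fbln2, 0.273 (0.185–0.398) for Fbln5, 0.443 (0.368–0.532) for Lox and 0.550 (0.432–0.701) for Loxl1, with 43 to 264 UMIs in a library. Thus 4 of 6 members tested were lower and 0 higher, where 3.92% of genes were lower. At 4 dpf 2 of 5 were lower (Fbln2 and Lox), where 5.65% of genes were. The class had 51 cells in control_4d and 120 in control_7d, against 49 in RA_4d and 212 in RA_7d. The summed level of the 5 mesenchymal markers in it was 1176, 2026, 906 and 1417 CPM in the same order, and that of the 5 endothelial markers 218, 209, 47.9 and 136 CPM. The part of transcripts from those cells in the result was not tested.

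Pericyte-like cells, the mural class with Kcnj8 and Abcc9, shared the rise of Eln. Their Eln level was 449 CPM in control_4d and 247 in control_7d, against 636 in RA_4d and 577 in RA_7d, a ratio of 1.41 (1.20–1.66) at 4 dpf and 2.34 (2.08–2.63) at 7 dpf. Mfap5 was 60.1, 41.7, 156 and 88.3 CPM in the same order and was higher at both times. At 7 dpf Fbn2 (38.5 CPM in control_7d and 22.5 in RA_7d), Fbln2 (61.3 and 25.4) and Loxl1 (85.4 and 25.4) were lower, so 2 of 7 were higher and 3 lower, where 10.6% and 6.09% of genes were. At 4 dpf, with 40 and 20 cells, Mfap5 alone of 5 members tested was past the limit, where 6.49% of genes were higher.

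In endothelial cells, 5 of the members were hardly above their level in cells that should lack them. Fbn2, Mfap4, Mfap5, Loxl1 and Fbln1 stood at 2.87 to 12.6 CPM in the endothelial cells of RA_7d and at 2.00 to 12.0 CPM in its haematopoietic cells. Eln, Fbn1, Fbln2 and Fbln5 were well above it: Fbn1 was 76.4 CPM in control_4d and 80.1 in control_7d, against 91.1 in RA_4d and 131 in RA_7d. Fbln2 was 483, 321, 545 and 527 CPM, and Fbln5 171, 128, 202 and 215 CPM. At 7 dpf the ratio was 1.70 (1.63–1.78) for Eln, 1.64 (1.52–1.75) for Fbn1, 1.64 (1.58–1.70) for Fbln2 and 1.68 (1.59–1.78) for Fbln5.

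With Fbln1, at 1.44 and 2.87 CPM, 5 of 10 members were counted as higher in endothelial cells at 7 dpf and 0 as lower, where 3.84% and 3.71% of genes were. At 4 dpf 0 of 7 were higher and 1 was lower (Mfap5, 5.24 and 3.06 CPM), where 2.66% and 1.96% of genes were. Eln, Fbn1, Fbln2 and Fbln5 were each higher at 7 dpf by less than 2-fold. Venular-like cells were 233 of the 932 endothelial cells in control_7d and 457 of the 1258 in RA_7d. With each class at its share over the 4 libraries, Fbn1 and Fbln2 fell within 1.5-fold, at log2 ratios of 0.55 and 0.50. Eln and Fbln5 stayed past it, at 0.62 and 0.74. Lox, at 18.9 and 20.8 CPM against 10.3 and 11.8 CPM in haematopoietic cells, had a ratio of 1.10 (0.937–1.28) at 7 dpf and was not past the limit. The summed mesenchymal markers in endothelial cells were 561 CPM in control_7d and 539 in RA_7d.

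Capillary-like cells had the largest ratio of Eln among the endothelial classes at both times. Their Eln level was 15.8 CPM in control_4d and 22.0 in control_7d, against 35.4 in RA_4d and 75.4 in RA_7d, a ratio of 2.24 (1.75–2.88) at 4 dpf and 3.43 (2.86–4.14) at 7 dpf. Fbln5 was 38.4, 50.2, 102 and 117 CPM, and Fbln2 was 219, 135, 255 and 338 CPM in the same order. At 7 dpf 5 of 8 members tested were higher (Eln, Fbn1, Fbln2, Fbln5 and Mfap4), where 4.24% of genes were, and at 4 dpf 3 of 4 were (Eln, Fbn1 and Fbln5), where 4.4% were. Mfap4 rested on 23 and 47 UMIs there. It was at most 6.02 CPM in any library, within its haematopoietic range of 0.763 to 7.39 CPM. The summed mesenchymal markers in this class were 111 CPM in control_4d and 272 in control_7d, against 67.2 in RA_4d and 417 in RA_7d, so that they were also higher in RA_7d than in control_7d, and their part in the 7 dpf count was not tested. The share of capillary-like cells with Eln after thinning was 7.82%, 7.66%, 11% and 22.5% in control_4d, control_7d, RA_4d and RA_7d.

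The other endothelial classes varied. Arterial-like cells, whose vessels carry the elastic laminae, had 678 CPM of Eln in control_4d and 1252 in control_7d, against 998 in RA_4d and 2210 in RA_7d, a ratio of 1.77 (1.63–1.92) at 7 dpf from 53 and 57 cells. Lox was higher in them too (134 CPM in control_7d and 211 in RA_7d), so 2 of 5 were higher where 5.63% of genes were. Venular-like cells had 439, 432, 491 and 566 CPM of Eln, a ratio of 1.31 (1.23–1.40) at 7 dpf. There Fbn1 (135 and 219 CPM), Fbln5 (121 and 244), Mfap4 (3.64 and 6.83) and Lox (10.6 and 18.1) were higher, 4 of 8, where 4.82% of genes were. Both Mfap4 levels lay within its range in haematopoietic cells, 0.763 to 7.39 CPM over the 4 libraries. The Lox level of control_7d lay within its haematopoietic range of 3.79 to 11.8 CPM. At 4 dpf Lox was lower in venular-like cells on 43 and 18 UMIs, where 3.24% of genes were lower.

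In lymphatic-like cells Fbln2 (71.2 CPM in control_7d and 192 in RA_7d) and Fbln5 (121 and 197) were higher at 7 dpf and both were lower at 4 dpf (281 and 183 CPM, and 299.7 and 192 CPM), with 31 and 34 cells at 4 dpf. In that class 6.18% of genes were higher at 7 dpf and 10.7% lower at 4 dpf. In cycling endothelial-like cells at 4 dpf Eln was counted as lower on 42 and 16 UMIs, with a ratio of 0.614 (0.322–1.12) whose interval includes 1, where 6.83% of genes were lower. Fbln5 in that class was higher at 4 dpf (28.2 CPM in control_4d and 72.7 in RA_4d, ratio 2.58, 1.75–3.83) and lower at 7 dpf (56.7 and 31.6, ratio 0.558, 0.338–0.891), where 6.19% and 5.13% of genes were. Over all classes Eln was higher in RA in 6 of 12 at 4 dpf, where between 3.74% and 12% of the genes tested in those classes were. It was higher in 7 of 13 at 7 dpf, where between 4.24% and 10.6% were. The mesenchymal classes among these 7 make up the sum for which Eln was chosen and are a description. The others were pericyte-like, capillary-like and arterial-like cells.

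Time was compared within each condition, with the same 4 libraries as above. In control mesenchymal cells Fbn2 was higher at 7 than at 4 dpf (ratio 2.16, 2.08–2.25) and Fbn1 (0.626) and Fbln1 (0.504) were lower, 1 and 2 of 10, where 5.8% and 4.37% of genes were. In RA mesenchymal cells Eln (1.67, 1.63–1.71) and Mfap4 (1.89, 1.84–1.95) were higher and Lox (0.595) was lower, 2 and 1 of 10, where 4.85% and 4.21% of genes were. Eln in control mesenchymal cells had a ratio of 0.880 (0.848–0.913).

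In mural cells 9 of 10 members were higher at 7 dpf in control and 7 of 10 in RA, where 6.88% and 10.5% of genes were, and 0 were lower, where 4.19% and 4.02% were. Eln was not among them, at ratios of 0.771 (0.703–0.846) and 1.24 (1.12–1.37). The summed mesenchymal markers in mural cells were 3743 CPM in control_4d and 6267 in control_7d, against 2886 in RA_4d and 6331 in RA_7d, and their part in this result was not tested. With each cell weighted equally the control count was 4 of 10. In endothelial cells 5 of 9 members tested were higher in control and 5 of 10 in RA, where 4.74% and 4.52% of genes were, and the members were the low ones: Mfap4, Mfap5, Lox and Loxl1 in both, with Fbn2 in control and Fbln1 in RA. Fbln2 alone was lower, in control (ratio 0.666, 0.641–0.691), where 1.92% of genes were lower in control and 2.51% in RA. The mesenchymal markers in endothelial cells went from 132 to 561 CPM in control and from 86.2 to 539 CPM in RA, and the haematopoietic level of these members was higher at 7 dpf as well (Mfap5 4.35 and 10.2 CPM in control). Their part in the endothelial count was not tested.

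Genes around the fibre, taken from lists chosen by function, moved in both directions. Of 20 accessory assembly genes, 4 were higher and 3 lower in RA mesenchymal cells at 7 dpf, where 4.54% and 4.45% of all genes tested were, with a median log2 ratio of 0.12 against −0.03 over all genes. Past 2-fold were Efemp1 (fibulin-3), at 56.2 CPM in control_7d and 191 in RA_7d, and Adamtsl2, which binds fibrillin, at 0.440 and 2.62 CPM on 36 and 271 UMIs. The others were Fbln7 and Emilin2 (higher) and Emilin1, Ltbp2 and Loxl3 (lower). At 4 dpf 1 was higher and 4 lower of 18 tested, where 4.24% and 2.54% of all genes were.

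Of the elastin-degrading enzymes and inhibitors, 1 was higher (Ctsk, a cathepsin) and 2 lower (Timp1 and Mmp9) of 10 tested at 7 dpf, and 2 were higher and 0 lower at 4 dpf. Mmp9 was the leading gene of a haematopoietic cluster. The summed haematopoietic markers in mesenchymal cells were 99.3 CPM in control_7d and 75.1 in RA_7d, and the part of such transcripts in the Mmp9 difference was not tested. Of 7 fibrillar collagens, Col3a1 was higher at 7 dpf and Col11a1, a cartilage collagen, was lower, at 1150 CPM in control_7d and 571 in RA_7d, while 1 was lower at 4 dpf. Chondrogenic-like cells were 7.88% of the mesenchymal cells in control_7d and 3.18% in RA_7d, and their part in the Col11a1 difference was not tested. The shares over all genes are those given for the accessory genes, 4.54% higher and 4.45% lower at 7 dpf and 4.24% and 2.54% at 4 dpf.

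The pattern of Eln over classes and libraries was little like that of the other members. Over 50 class and library points, which share libraries and depth, the Pearson r of log2(CPM + 1) with Eln was 0.36 for Fbln5, 0.31 for Fbn1 and at most 0.15 for the others, with −0.17 for Fbn2. The genes most like Eln among 7022 compared were Kdm6b (0.79), Mettl7a1 (0.79), Mir22hg (0.77), Neat1 (0.77) and Osmr (0.76), none of which is a matrix gene. Of these, Mettl7a1 was 11.5 CPM in mesenchymal cells of control_4d and 7.16 in those of control_7d, against 12.8 in RA_4d and 12.6 in RA_7d, so that control_7d was the low library. Osmr, the oncostatin M receptor, was 71.4 CPM in control_4d and 58.1 in control_7d, against 84.6 in RA_4d and 65.3 in RA_7d. These correlations are descriptions of the points and carry no test.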

How the data were processed

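The authors aligned reads of the 4 single-cell libraries with Cell Ranger 7.0.1 to mm10, per the submitters' processing notes, and deposited UMI counts (raw, by gene and barcode), the unit used here. The annotation version and the setting for intronic reads are not given in the sources used here. UMIs in other cells can include free RNA from the suspension, so haematopoietic levels are printed as a background.

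Cells with 4000 to 50000 UMIs, 2000 to 7000 detected genes and at most 8% mitochondrial UMIs were kept, following the study's methods. Libraries were integrated (CCA) and clustered with Seurat 5.3.0 (R 4.3.3) on 2000 variable genes at the lowest resolution step that gave at least 20 clusters (0.5). Lineages, then classes, were named from marker scores of at least 0.5 that led the next by at least 0.1. These limits were set after the clusters were seen, and mural and blood endothelial cells were clustered a second time on their own. Scrublet (scanpy 1.11.5) called 609 doublets (2.39%), which were kept, and leaving them out was an alternative.

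Counts were summed per class and library. Intervals are exact Poisson (levels), exact conditional binomial (ratios) and Clopper-Pearson (shares of cells), at 95%, from scipy 1.17.1 (numpy 2.4.6, pandas 2.3.3, Python 3.11.15), and cover counting error only. With 1 library per group no test was run. Calls used a pseudocount of 1 CPM, at least 50 UMIs over both libraries and 1.5-fold, and classes needed 20 cells in both. Shares of cells were read after thinning each cell to 4000 UMIs, and no kept cell was shallower. The calculations were tested on simulated data.

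Named genes were the 10 members, 20 accessory genes, 11 elastin-degrading enzymes and inhibitors and 7 fibrillar collagens (counts, and values past 2-fold at 7 dpf in mesenchymal cells), the markers, and the 5 genes most like Eln among those with at least 50 CPM in a class. The members and lists were chosen with earlier results of these data known. Gene positions are from GENCODE M21 on GRCm38, and the upstream sequence is from RefSeq (GRCm38.p6).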

Additional observations from a re-analysis of the deposited data

Results flagged for a closer look

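In 11 cases the ratio of RA to control of a member lay on opposite sides of 1 in 2 lineages or at 2 times, with both counting intervals clear of 1 and at least 1 of the ratios past 1.5-fold. Smaller opposite differences, such as those of Mfap5, Lox and Loxl1 in mesenchymal cells at the 2 times, are not among them. None of these differences was tested, since each rests on 1 library per group. The values are differences of log2 ratios, with the mural ratios resting on 74 to 417 cells. Fbn1 in mesenchymal cells was lower in RA at 4 dpf and higher at 7 dpf, a difference of −1.15, and Fbn2 went the other way, at 0.72. At 4 dpf the ratio of mesenchymal cells exceeded that of mural cells by 1.31 for Eln, by 0.74 for Fbln2 and by 0.95 for Lox, and for Mfap5 the difference was −1.20. At the same time the mural ratio minus the endothelial one was −0.79 for Fbln2 and 1.26 for Mfap5. At 7 dpf the mesenchymal ratio of Fbln5 exceeded the mural one by 1.30, and the mural ratio minus the endothelial one was −1.67 for Fbln5 and −0.93 for Fbln2. The mural ratios of Eln, Fbln2 and Lox at 4 dpf changed sign under other settings, given with the processing. For Eln the mural log2 ratio went from −0.18 to 0.064 with each class at its share over all 4 libraries.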

How the results depend on the processing

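No paired analysis was possible because each group is 1 library and the labels carry no replicate numbers. In the mesenchymal cells at 7 dpf 3 of 10 members were past 1.5-fold: Fbn1, Fbln1 and Eln, for whose rise there the set was chosen. That count moved by more than 1.5 times under none of the 13 other settings run. Because Eln was in it, this says little about the other members. It became 2 at a fold of 2, where only Fbln1 was left beside Eln. With each class at its share over all 4 libraries Fbn1 fell within 1.5-fold, at a log2 ratio of 0.34, and again only Fbln1 was left beside Eln. At 4 dpf the mesenchymal count of 2 became 1, Eln alone, at a fold of 2 and with each class at its share over all 4 libraries. With TMM scaling its members changed: Fbn2 fell within 1.5-fold, and Fbn1 and Mfap5 were lower, at log2 ratios of −0.62 and −0.63. The mural count at 4 dpf (4) became 2 with the looser filter and with members among the variable genes, 1 without integration, with a pseudocount of 10 CPM and with the mean over cells, and 0 at a fold of 2. The mural count at 7 dpf (4) became 2 with the looser filter, 7 with doublets left out, 0 at a fold of 2 and 8 with equal class shares. The endothelial count at 4 dpf (1) became 0 with a pseudocount of 10 CPM and at a fold of 2, 3 with at least 10 UMIs and 2 with the mean over cells, and that at 7 dpf (5) became 0 at a fold of 2. With equal class shares endothelial Fbn1 and Fbln2 fell within 1.5-fold at 7 dpf, at log2 ratios of 0.55 and 0.50. The Eln ratio on the log2(CPM + 1) scale in mesenchymal cells at 4 dpf (2.20) was 2.37 with the looser filter, 2.36 without doublets, 2.09 with TMM scaling, 2.13 with a pseudocount of 10 CPM and 2.30 with the mean over cells, and at 7 dpf (4.17) it was 3.95 with that pseudocount, 3.99 with the mean over cells and 3.40 with equal class shares. With equal class shares the mural Eln ratio was 1.05 at 4 dpf (from 0.885) and 1.26 at 7 dpf (from 1.42), and the endothelial one 1.22 (from 1.31, and 1.21 with the looser filter) and 1.53 (from 1.70). Without the unnamed sub-clusters, an alternative chosen after seeing the data, it was 1.31 in mural and 1.81 in endothelial cells at 7 dpf. From 4 to 7 dpf the mural control count (9) became 4 with the mean over cells, and with a pseudocount of 10 CPM the endothelial counts became 0 in control (from 6) and 1 in RA (from 5). The share of mesenchymal cells with Eln as deposited was 44.8%, 39.5%, 50.5% and 63.5% in control_4d, control_7d, RA_4d and RA_7d. In mural cells at 4 dpf the log2 ratio of Fbln2 turned to 0.33 with the looser filter, 0.28 without integration and 0.11 with members among the variable genes, that of Lox to 0.41 and 0.040 under the first 2 of these, and that of Fbln5 to 0.68 under the third. That of Mfap4 at 7 dpf turned to −0.73 without doublets, −0.77 with equal class shares and −0.69 without the unnamed sub-clusters. The cause of these changes was not tested. TMM scaling moved no log2 ratio by more than 0.1, which was enough to change the mesenchymal calls at 4 dpf given above. The limit throughout is 1 library per group, and in mural cells 74 to 417 cells per library.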

Other observations

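At a finer clustering (resolution 1) 3 clusters took the fibroblast-like name. They held more cells together than the fibroblast-like class of the report and are not a split of it, and they differed in their leading genes. The first, of 1716 cells, was led by Saa3, an acute phase protein gene, Mmp3, a stromelysin, and Cxcl14, with Eln among its 10 leading genes, and had 354 CPM of Eln in control_4d and 223 in control_7d, against 654 in RA_4d and 932 in RA_7d. The second, of 1568 cells, was led by Myoc, Abca8a and Gdf10 and had 303, 309, 684 and 878 CPM in the same order. The third, of 136 cells and led by Apod and Tenm2, had 201 CPM in control_7d and 331 in RA_7d. Fbn2 separated the first from the second: it was 80.3, 261, 141 and 227 CPM in the first and 9.74, 122, 32.3 and 78.9 CPM in the second. Lox did so as well, at 824, 559, 1104 and 590 CPM in the first and 339, 358, 506 and 296 CPM in the second. These clusters were not used in any comparison.

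At the same resolution 2 clusters took the tenocyte precursor-like name, again with more cells together than the class of that name, and Eln differed in opposite directions in them, with the directions exchanged between 4 and 7 dpf. The cluster of 614 cells led by Tnmd and Scx had 29.7 CPM of Eln in control_7d and 238 in RA_7d, and Mfap4 at 292 and 665 CPM. The cluster of 605 cells led by Kera and Fmod had Eln at 176 and 87.3 CPM, and Mfap4 at 874 and 994 CPM. At 4 dpf Eln was 46.0 CPM in control_4d and 17.3 in RA_4d in the former, from 54 and 24 cells, and 23.6 and 111 CPM in the latter. The difference between the clusters was not tested.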
